A study of Mus musculus with 24 samples.

Results

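The PGC-1 coactivators and the mitochondrial biogenesis factors that work with them are a set of 10 genes, which were followed through inguinal subcutaneous white fat of C57BL/6J mice. The set was given as a list of symbols and holds the coactivators Ppargc1a, Ppargc1b and Pprc1, the oestrogen-related receptors Esrra, Esrrb and Esrrg, the nuclear respiratory factors Nrf1 and Gabpa, the mitochondrial DNA-binding factor Tfam, and Perm1. These are 10 of the 39017 genes in the chow table and of the 38483 genes in the high-fat diet (HFD) table. Perm1 stood in both tables only under its older symbol 2310042D19Rik, so 9 members were found by symbol and all 10 by Ensembl identifier. The study sequenced polyadenylated RNA from the whole fat pad in 24 libraries, 6 in each of 4 groups. WT-Tg mice carry a transgene for the wild-type gamma 1 subunit of AMPK (AMPKg1-WT), and D316A-Tg mice carry the gain-of-function D316A form, so no group lacks a transgene. Each genotype was sampled on chow at 16 weeks of age and on HFD, with 45% in its label, at 24 weeks of age. The promoter that drives the transgenes is not given in the sources used here, and nothing in the labels says that each library is a different animal. The p-values therefore measure the spread among these libraries, which may be technical.

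AMPK is an energy-sensing kinase, and PGC-1 alpha, the protein of Ppargc1a, is among the factors through which it is known to raise mitochondrial gene expression in muscle. PGC-1 proteins bind no DNA themselves. They dock on transcription factors, above all the oestrogen-related receptors (ERR), NRF1 and the ETS factor GABP, which switch on nuclear genes for respiration, and TFAM in turn packages, transcribes and helps to copy mitochondrial DNA. In adipose tissue PGC-1 alpha is best known for its induction by cold and beta-adrenergic signals in brown and beige fat.

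The upstream sequences below are shown because several members are themselves described as targets of the factors in the set. They come from RefSeq on GRCm38.p6 and are printed 5′ to 3′ on the gene's own strand. Windows of 9 of the 10 members were searched, 14 windows in all. No window of Ppargc1b was included, so its upstream sequence was not searched and nothing is said here about its motifs. Both strands of the 250 bases before each start site were searched for GCGCATGC (NRF1), CCGGAAG (GABP), AAGGTCA (ERR), CTA and TAG with 4 bases between them (MEF2 type) and TGACGTCA (the cyclic AMP response element). The shorter TGACGT, which lies inside the cyclic AMP response element and so overlaps it, was added after the Ppargc1a sequence had been seen. The capitals mark the matched letters, which appear as the reverse complement where the match lies on the opposite strand.
Ppargc1a, chr5:51567726-51567975, minus strand, TGACGT at position -50: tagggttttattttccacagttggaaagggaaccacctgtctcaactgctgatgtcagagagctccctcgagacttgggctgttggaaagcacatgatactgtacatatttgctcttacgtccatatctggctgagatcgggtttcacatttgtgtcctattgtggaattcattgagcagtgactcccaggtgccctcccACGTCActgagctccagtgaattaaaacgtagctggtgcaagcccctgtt
Esrra, chr19:6921809-6922058, minus strand, GCGCATGC at position -34: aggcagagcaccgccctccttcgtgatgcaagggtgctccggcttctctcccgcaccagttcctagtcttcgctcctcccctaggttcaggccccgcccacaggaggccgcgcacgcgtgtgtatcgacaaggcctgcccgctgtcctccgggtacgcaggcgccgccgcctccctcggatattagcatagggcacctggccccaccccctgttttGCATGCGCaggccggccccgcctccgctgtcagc
Tfam, chr10:71238073-71238102, minus strand, CCGGAAG at position -47: cctgccgcggaCCGGAAGtccgggcttccc
Gabpa, chr16:84835020-84835049, plus strand, CCGGAAG at position -93: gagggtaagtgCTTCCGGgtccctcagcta
Perm1, chr4:156215714-156215743, plus strand, AAGGTCA at position -202: ggaatccggtgTGACCTTagctaatgccaa
Esrrg, chr1:187608974-187609003, plus strand, MEF2-type motif at position -22: taaaactttgCTATTTATAGtctacgcccg
Positions count back from the RefSeq start site to the first printed capital. Among the 32851 windows of the same length in the mouse table, 2.26% held GCGCATGC, 6.91% held CCGGAAG, 4.08% held AAGGTCA, 1.55% held TGACGTCA, 6.47% held TGACGT and 3.2% held the MEF2-type motif. The Gabpa, Tfam and Esrrg sites lie inside the GENCODE spans of their genes, which start further upstream. The windows of Pprc1, Esrrb and Nrf1 held none of the 6 motifs. Esrrg had 4 windows, and those other than the window of the printed site held none either. This says only that those letters are not in those windows.

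The libraries held between 13254536 and 22748132 counts. All had the adipocyte hormone Adipoq at 1275 CPM (counts scaled to a library of 1000000) or more, so the labelled tissue carried its defining transcript throughout. The libraries also differed in RNA of other tissues, although the labels say that the lymph node was removed. The B lymphocyte score, the mean log2 CPM of 11 B cell genes, was above 3 in 11 libraries, called lymphocyte-rich here. On chow these are WT-Tg 1 to 4 and D316A-Tg 8 and 11, and on HFD they are WT-Tg 3 and D316A-Tg 7, 8, 9 and 11. The score of 24 skeletal muscle contractile genes ran from -0.22 to 5.46 in WT-Tg and from -0.77 to 3.34 in D316A-Tg on chow. On HFD it ran from -0.45 to 2.11 in WT-Tg and from 2.16 to 6.76 in D316A-Tg, with no overlap, and all 19 of the list's tested genes were higher in D316A-Tg, at a median log2 change of 5.95. The motor gene Myh2 was at 0 in at least 1 D316A-Tg chow library and never in the other groups. Prkag1, the gene of the transgenic subunit, averaged 395 ± 88.0 CPM over the WT-Tg and 372 ± 84.6 CPM over the D316A-Tg chow libraries, and 319 ± 18.4 and 384 ± 173 CPM in their HFD counterparts (SD, n = 6). These counts cannot tell the wild-type and D316A transcripts apart.

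Levels between genes were compared as CPM per kilobase of exon, and in each of the 4 groups Esrra, Gabpa and Tfam were the most abundant members. In WT-Tg on chow Tfam averaged 10.6 ± 1.58, Esrra 10.4 ± 1.86 and Gabpa 8.11 ± 0.533 CPM per kb (SD, n = 6). Pprc1 followed at 6.85 ± 2.01 CPM per kb, and Nrf1, Ppargc1a and Ppargc1b lay between 1.49 and 2.57 CPM per kb. Tfam and Esrra, and Ppargc1a and Ppargc1b, did not differ there beyond their spread. Perm1 at 0.457 ± 0.321 and Esrrg at 0.350 ± 0.118 CPM per kb were low. Esrrb, whose protein is best known from stem cells and placenta, was lowest of the 10 in each group, with 0 to 10 counts per library, and was too low to be tested in any comparison. The order shifted with diet and genotype: Ppargc1b averaged 3.47 ± 0.520 CPM per kb in D316A-Tg on chow and 0.676 ± 0.148 in WT-Tg on HFD, and Esrrg averaged 1.97 ± 0.444 in WT-Tg on HFD.

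**Figure D1:**
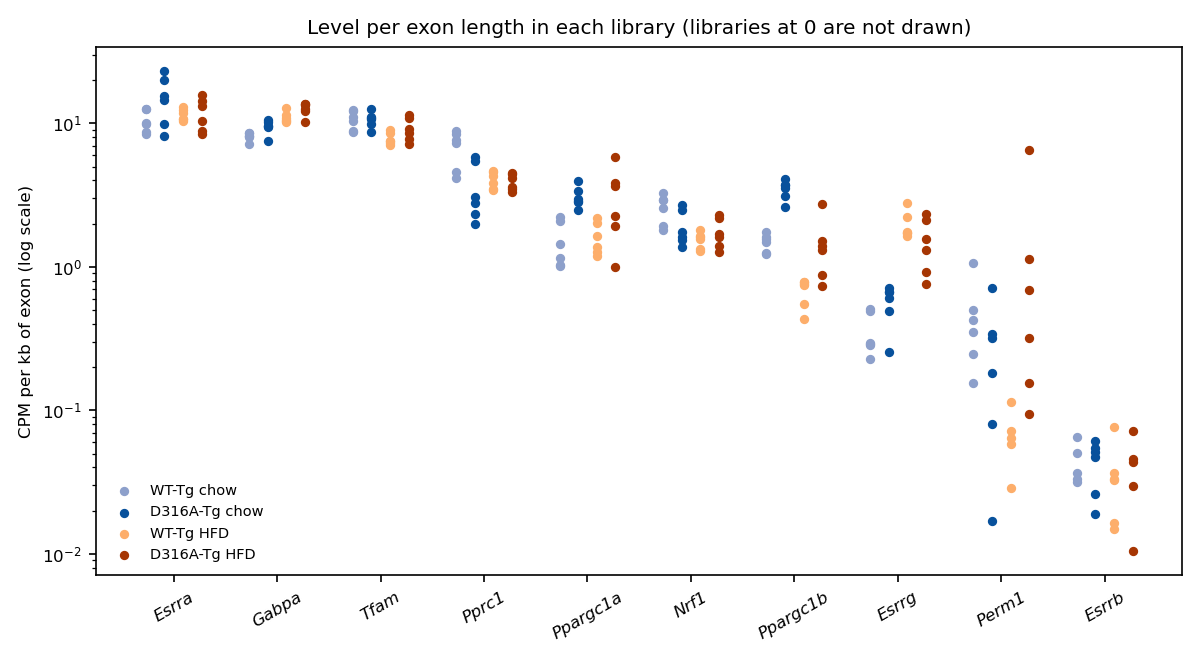
Level of each member per exon length, in CPM per kb on a log axis, with 1 point per library and 1 colour per group; libraries at 0 are not drawn. Esrra, Gabpa and Tfam have the highest group means in every group, Esrrb the lowest, and Perm1 in HFD D316A-Tg library 7 reaches 6.54 CPM per kb.

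The D316A transgene went with more Ppargc1a and Ppargc1b message in chow-fed fat and with more Ppargc1b on HFD, while no member was called lower in D316A-Tg on either diet. Of these calls, only Ppargc1b on chow held in all 12 fits that left out 1 library each. Ppargc1a on chow was called in 4 of 12 such fits and Ppargc1b on HFD in 3 of 12. On chow, 2 of the 9 tested members passed an adjusted p below 0.05 in edgeR, both higher, and 6 passed an unadjusted p below 0.05. Over all 15249 genes tested, 8.54% were called, 5.30% higher and 3.25% lower. On HFD, 1 of the 8 tested members was called, and it was higher, against 8.47% of the 14649 genes tested, 4.51% higher and 3.96% lower; 3 members passed unadjusted. With so few members these shares are a description. The median log2 change over the tested members was 0.22 on chow, beside -0.07 for all genes, and 0.17 on HFD, beside 0.01. In RNA from whole tissue, fewer cells of a type and less RNA per cell cannot be told apart, and this holds for every difference below.

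**Figure D2:**
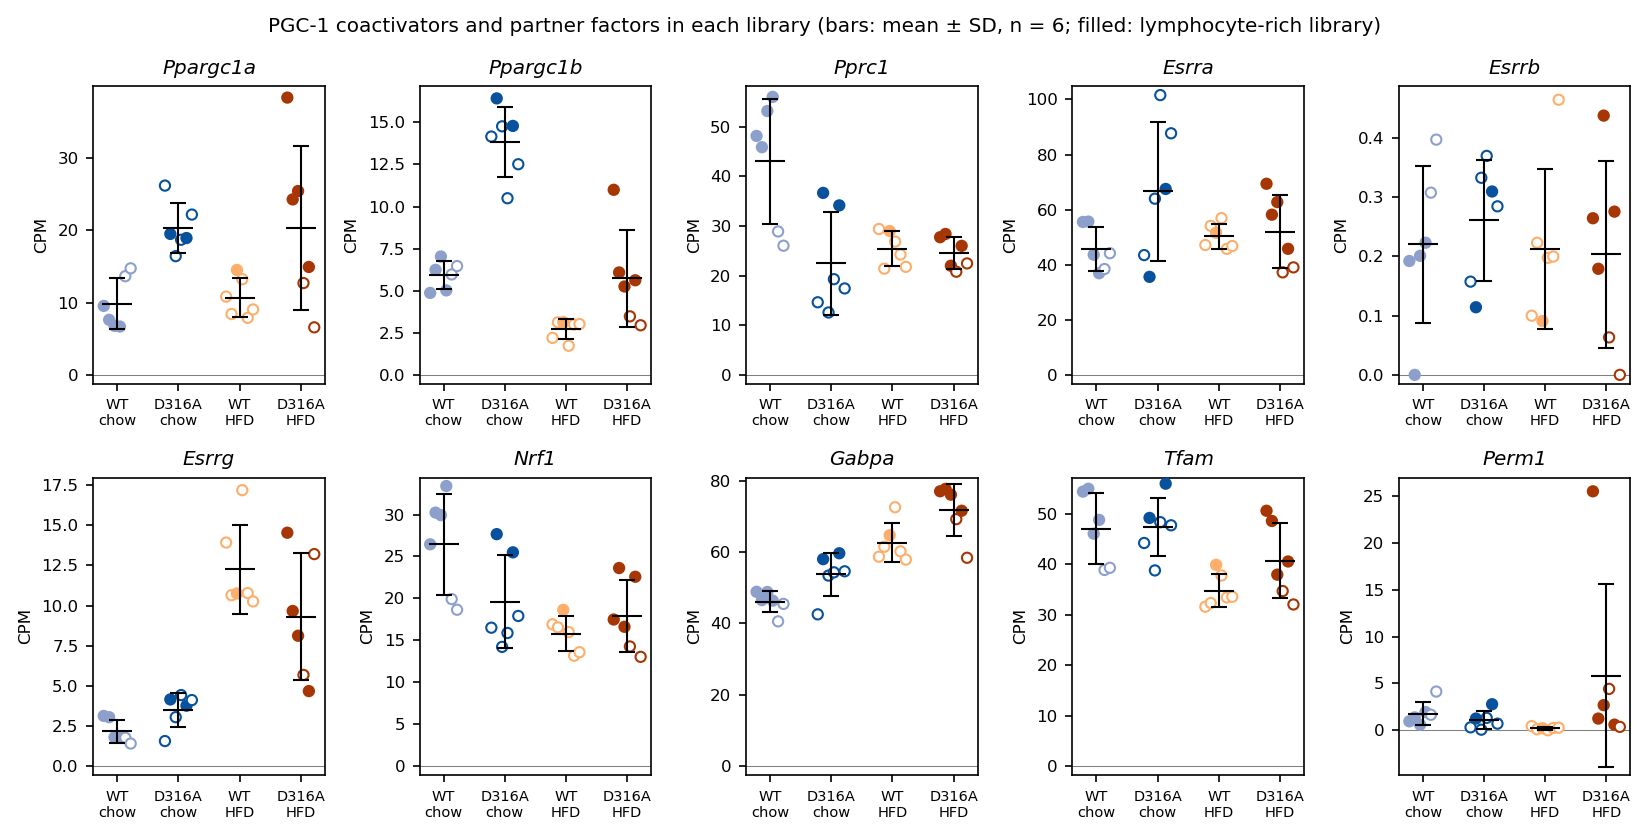
CPM of each member in every library, with the mean and SD of the 6 libraries of a group as bars; filled points are lymphocyte-rich libraries. Ppargc1a and Ppargc1b separate the genotypes on chow, Esrrg separates the diets, and a single HFD D316A-Tg library stands at 25.5 CPM for Perm1.

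Ppargc1a (ENSMUSG00000029167, chr5:51454250-51567726 on GRCm38), which encodes PGC-1 alpha, had a lowest, median and highest level of 6.69, 8.58 and 14.7 CPM in the WT-Tg chow libraries and of 16.4, 19.2 and 26.2 CPM in the D316A-Tg chow libraries. The groups did not overlap: the lowest D316A-Tg library lay above the highest WT-Tg library. It rose 2.06-fold, a log2 change of 1.04 ± 0.22 (SE; adjusted p = 0.0235, edgeR). The score of 9 brown and beige adipocyte genes moved with it, from a range of 2.52 to 5.59 across WT-Tg up to 4.96 to 6.56 across D316A-Tg, where 3 of the 9 were called higher; their part in the difference was not tested. Within WT-Tg, the 4 lymphocyte-rich libraries held 6.69 to 9.54 CPM and the other libraries 13.7 and 14.7 CPM. Within D316A-Tg, lymphocyte-rich libraries 8 and 11 held 19.5 and 18.9 CPM and the other libraries 16.4 to 26.2 CPM. Without the 6 lymphocyte-rich chow libraries, which leaves 2 WT-Tg and 4 D316A-Tg, the log2 change was 0.55 with an adjusted p of 0.104, and with the muscle score as a covariate it was 1.26 with an adjusted p of 0.0576. The call also ended when WT-Tg library 1, 2, 3 or 4 or D316A-Tg library 7, 9, 10 or 12 was left out, with adjusted p from 0.0530 to 0.0759 and log2 changes from 0.93 to 1.08.

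On HFD Ppargc1a spread widely in D316A-Tg. Its lowest, median and highest level was 7.89, 9.94 and 14.5 CPM in WT-Tg and 6.58, 19.6 and 38.4 CPM in D316A-Tg. D316A-Tg libraries 7, 8, 9 and 11 lay above every WT-Tg library, library 10 at 12.7 CPM lay within their range, and library 12 at 6.58 CPM was the lowest of the 12. The log2 change of 0.92 ± 0.35 had an adjusted p of 0.106. Libraries 7, 8, 9 and 11 are also the lymphocyte-rich ones, and library 7, the highest, had the highest muscle score, 6.76, and the highest brown and beige adipocyte score, 7.05, of the HFD libraries. Without the 5 lymphocyte-rich HFD libraries the log2 difference was -0.04, and with the muscle score as a covariate it was -0.23. Without library 12 the log2 change was 1.09, with an adjusted p of 0.0164.

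Ppargc1b (ENSMUSG00000033871, chr18:61298136-61400431), which encodes PGC-1 beta, a coactivator of respiratory and fatty acid oxidation genes, had a lowest, median and highest level of 4.87, 6.10 and 7.03 CPM in WT-Tg and of 10.5, 14.5 and 16.4 CPM in D316A-Tg on chow. The genotypes did not overlap. Lymphocyte-rich libraries spanned the WT-Tg range, and in D316A-Tg they were the highest, library 8 at 16.4 CPM and library 11 at 14.8 CPM, beside 10.5 to 14.8 CPM in the others. It rose 2.33-fold, a log2 change of 1.22 ± 0.14 (adjusted p = 0.00314). This call held in all 12 fits that left out 1 library each, with a highest adjusted p of 0.0171. It also held without the lymphocyte-rich libraries, at a log2 change of 1.06 (adjusted p = 0.0172), and with the muscle score as a covariate, at 1.19 (adjusted p = 0.0243).

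On HFD the lowest, median and highest Ppargc1b level was 1.73, 3.01 and 3.13 CPM in WT-Tg and 2.95, 5.43 and 11.0 CPM in D316A-Tg. D316A-Tg libraries 7 to 11 lay above all WT-Tg libraries, and library 12 at 2.95 CPM lay among them. The 2.10-fold rise, a log2 change of 1.07 ± 0.30, had an adjusted p of 0.0470. That call ended when any single WT-Tg library other than 3, or D316A-Tg library 7, 8, 9 or 11, was left out, with adjusted p from 0.0768 to 0.0935. Without library 7 the log2 change was 0.77. The call also ended with no expression filter (adjusted p = 0.0638) and with the B lymphocyte score as a covariate, at 0.67 (adjusted p = 0.432). Without the lymphocyte-rich libraries it was 0.30 with an adjusted p of 0.705, and with the muscle score as a covariate, which does not overlap between the HFD groups, it was -0.03 with an adjusted p of 0.997.

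Pprc1 (ENSMUSG00000055491, chr19:46044886-46072915), whose protein PRC is the growth-responsive relative of PGC-1 alpha, had lower values in D316A-Tg on chow without passing the test. Its lowest, median and highest level was 26.0, 47.0 and 56.0 CPM in WT-Tg and 12.6, 18.4 and 36.7 CPM in D316A-Tg. In both genotypes the lymphocyte-rich libraries were the highest, at 45.9 to 56.0 CPM in WT-Tg and 34.2 and 36.7 CPM in D316A-Tg. The log2 difference of -0.94 ± 0.30 had an adjusted p of 0.0694. Among the libraries that were not lymphocyte-rich, WT-Tg held 26.0 and 28.9 CPM and D316A-Tg 12.6 to 19.3 CPM, without overlap, and the log2 change there was -0.79 (adjusted p = 0.0283). With the B lymphocyte score as a covariate it was -0.57 (adjusted p = 0.00684). It was also called without WT-Tg library 6 or D316A-Tg library 8 or 11, with adjusted p from 0.0230 to 0.0492. On HFD Pprc1 stood at 25.4 ± 3.50 and 24.6 ± 3.23 CPM (SD, n = 6), with a log2 difference of -0.07 ± 0.11 and an adjusted p of 0.692. Ldb1, on the opposite strand, overlaps 2.82% of the Pprc1 exon length.

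**Figure D3:**
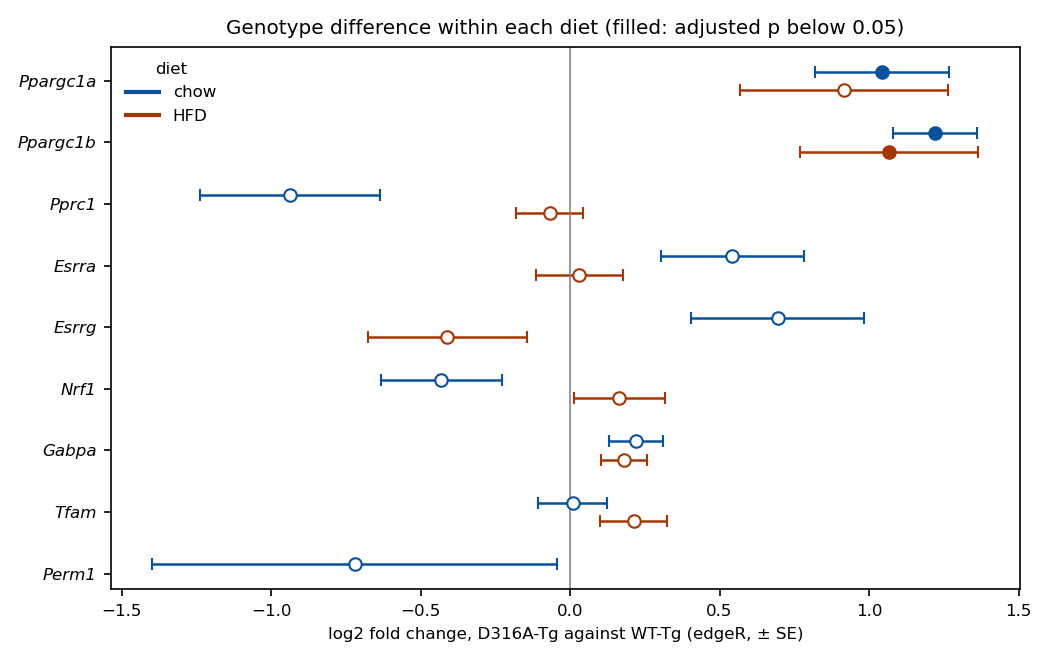
Log2 fold change of D316A-Tg against WT-Tg within each diet, with SE as bars; filled points passed an adjusted p below 0.05. Ppargc1a and Ppargc1b lie near 1 on both diets, whereas Pprc1, Esrra, Esrrg and Nrf1 lie further from 0 on chow than on HFD; Esrrb on both diets and Perm1 on HFD were too low to be tested.

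None of the oestrogen-related receptors, the main DNA-binding partners of PGC-1 proteins at respiratory genes, was called between genotypes. Esrra (ENSMUSG00000024955, chr19:6910977-6921813) had a lowest, median and highest level of 36.9, 43.9 and 55.7 CPM in WT-Tg and of 35.6, 65.7 and 102 CPM in D316A-Tg on chow. D316A-Tg libraries 9 to 12 lay above all WT-Tg libraries, and libraries 7 and 8, at 43.5 and 35.6 CPM, did not. The log2 difference was 0.54 ± 0.24 with an adjusted p of 0.154. Without D316A-Tg library 8 it was 0.67 with an adjusted p of 0.0393. On HFD Esrra stood at 50.4 ± 4.54 and 52.1 ± 13.3 CPM, a log2 difference of 0.03 ± 0.14 (adjusted p = 0.902). Trmt112 and Mir6990 overlap 3.74% of its exon length.

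Esrrg (ENSMUSG00000026610, chr1:187608791-188214885), the receptor known from highly oxidative tissues, had a lowest, median and highest level of 1.42, 1.82 and 3.14 CPM in WT-Tg and of 1.57, 3.95 and 4.43 CPM in D316A-Tg on chow. D316A-Tg libraries 8, 10, 11 and 12 exceeded every WT-Tg library, and library 7 was among the lowest. The log2 difference of 0.70 ± 0.29 had an adjusted p of 0.133. On HFD the order of the group means was the opposite, with 10.3, 10.8 and 17.2 CPM in WT-Tg and 4.68, 8.89 and 14.5 CPM in D316A-Tg, and a log2 difference of -0.41 ± 0.27 (adjusted p = 0.300). Esrrb (ENSMUSG00000021255, chr12:86361117-86521628) summed to 23, 23, 26 and 21 counts over the libraries of WT-Tg chow, D316A-Tg chow, WT-Tg HFD and D316A-Tg HFD.

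Nrf1 (ENSMUSG00000058440, chr6:30047988-30153458), the nuclear respiratory factor whose sites lie in many respiratory chain promoters, had a lowest, median and highest level of 18.7, 28.2 and 33.4 CPM in WT-Tg and of 14.2, 17.2 and 27.7 CPM in D316A-Tg on chow. As with Pprc1, the lymphocyte-rich libraries were the highest in both genotypes, at 26.4 CPM or more in WT-Tg and at 25.5 and 27.7 CPM in D316A-Tg. The log2 difference was -0.43 ± 0.20 (adjusted p = 0.175), and on HFD it was 0.16 ± 0.15 (adjusted p = 0.467).

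Gabpa (ENSMUSG00000008976, chr16:84834925-84863779), the DNA-binding subunit of GABP or NRF2, had small differences between genotypes that did not pass the test. Its lowest, median and highest level was 40.6, 46.5 and 48.9 CPM in WT-Tg and 42.55, 54.5 and 59.7 CPM in D316A-Tg on chow, and D316A-Tg libraries 8 to 12 lay above all WT-Tg libraries. The log2 difference was 0.22 ± 0.09 on chow (adjusted p = 0.126) and 0.18 ± 0.08 on HFD (adjusted p = 0.137). With the B lymphocyte score as a covariate, the chow change was 0.29 with an adjusted p of 0.0146, and without D316A-Tg library 12 the HFD change was 0.23 with an adjusted p of 0.0217. Atp5j, on the opposite strand, overlaps 6.98% of the Gabpa exon length.

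Tfam (ENSMUSG00000003923, chr10:71225464-71238280), the downstream factor that coats and transcribes mitochondrial DNA, had the difference nearest 0 of the 9 tested members on chow. Its lowest, median and highest level was 38.9, 47.4 and 54.9 CPM in WT-Tg and 38.8, 48.0 and 55.9 CPM in D316A-Tg, ranges that nearly coincide. The log2 difference was 0.01 ± 0.12 (adjusted p = 0.963). On HFD it stood at 34.8 ± 3.30 and 40.7 ± 7.46 CPM, a log2 difference of 0.21 ± 0.11 (adjusted p = 0.209).

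Perm1 (ENSMUSG00000078486, chr4:156215868-156221307), a muscle-enriched regulator induced by PGC-1 and ERR, was low outside a few libraries. Its lowest, median and highest level was 0.603, 1.52 and 4.14 CPM in WT-Tg and 0.0665, 0.983 and 2.78 CPM in D316A-Tg on chow, with overlapping ranges and a log2 difference of -0.72 ± 0.68 (adjusted p = 0.471). On HFD it was 0, 0.238 and 0.449 CPM in WT-Tg and 0.368, 1.97 and 25.5 CPM in D316A-Tg. There only D316A-Tg library 12 fell inside the WT-Tg range, and library 7 alone held 483 of the group's 635 counts. Perm1 did not pass the expression filter on HFD; without that filter its log2 change was 4.64 ± 1.12 (adjusted p = 0.0473). The muscle score moved with it: library 7 had the highest score of all 24 libraries and library 12 the lowest among HFD D316A-Tg.

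**Figure D4:**
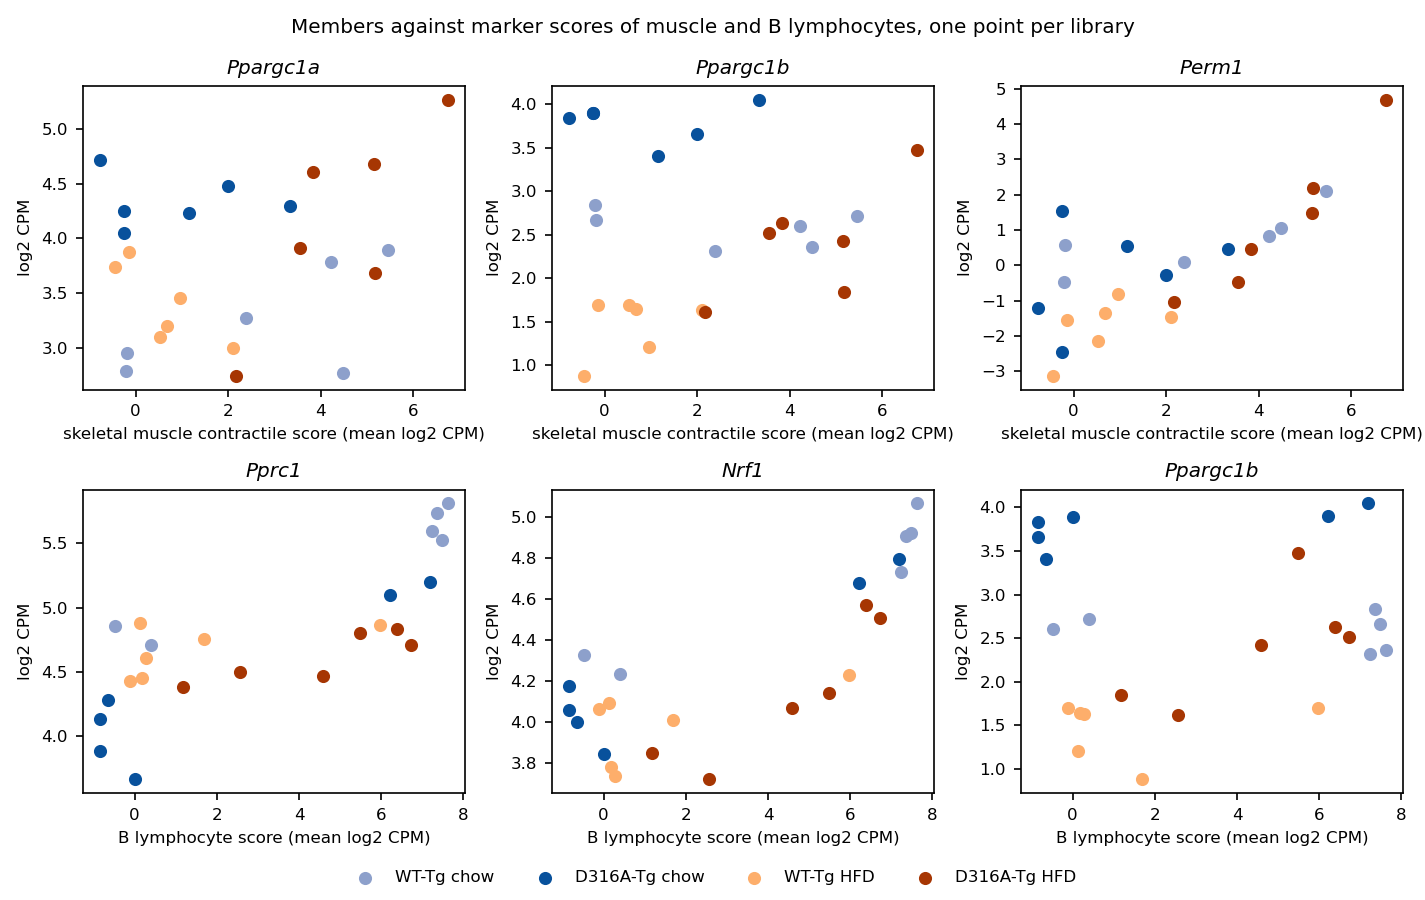
Log2 CPM of members against the score of skeletal muscle contractile genes (upper panels) or B lymphocyte genes (lower panels), with 1 point per library coloured by group. In HFD D316A-Tg, Perm1 rises with the muscle score. On chow the match is looser: D316A-Tg library 11 has the highest Perm1 of its group, 2.78 CPM, at a muscle score of -0.26. Within each genotype on chow, Pprc1 and Nrf1 are highest in libraries with a B lymphocyte score above 3. On HFD the highest Pprc1, 29.4 CPM, is in WT-Tg library 1, whose B lymphocyte score is 0.13. Ppargc1b in chow D316A-Tg lies above chow WT-Tg at low and at high B lymphocyte scores.

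Whether the genotype difference itself differed between the HFD and chow cohorts was tested as the D316A effect on HFD minus that on chow, over 16072 genes. The cohorts also differ in age and base-calling software, so the contrast cannot be ascribed to diet alone. Perm1 was the 1 member of 9 called, and it was higher, with a difference in log2 change of 5.39 ± 1.30 (adjusted p = 0.0114). Its size rests on low counts, as the WT-Tg HFD libraries held 0 to 9 Perm1 counts each. Of all genes 12.9% were called in this contrast, 6.08% higher and 6.86% lower, and 4 members passed an unadjusted p below 0.05. With the muscle score as a covariate the Perm1 value was 1.47 (adjusted p = 0.546), and without D316A-Tg HFD library 7 it was 3.76 (adjusted p = 0.0277). The genotype difference of Ppargc1a and Ppargc1b was not shown to differ between diets: the differences were -0.11 ± 0.43 and -0.14 ± 0.33, with adjusted p of 0.877 and 0.800. Those standard errors leave room for sizeable differences either way. For Pprc1 and Esrrg the differences were larger, 0.89 ± 0.33 and -1.09 ± 0.40, with adjusted p of 0.0757 and 0.0694. Pprc1 was called without WT-Tg chow library 5 or 6 or D316A-Tg chow library 8 or 11, Esrrg without D316A-Tg chow library 7 or D316A-Tg HFD library 7 or 12, and Nrf1, at 0.61 ± 0.26 with an adjusted p of 0.117 in all libraries, without D316A-Tg chow library 8.

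The HFD cohort differed from the chow cohort at 7 members in WT-Tg and at 4 in D316A-Tg, but diet, age and base-calling software changed together and cannot be told apart, and each diet is its own deposited table. In WT-Tg, 7 of 9 tested members were called, 2 higher and 5 lower, where 60.4% of all genes were called, 25.9% higher and 34.5% lower. In D316A-Tg, 4 of 9 were called, 3 higher and 1 lower, where 37.2% of all genes were called, 17.9% higher and 19.3% lower. Shares this close to the background are not a result about the members. Median log2 changes of the members were -0.44 in WT-Tg and 0.00 in D316A-Tg, beside -0.13 and -0.02 for all genes.

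Esrrg separated the cohorts in both genotypes. In WT-Tg it averaged 2.17 ± 0.733 CPM on chow and 12.3 ± 2.76 CPM on HFD, and in D316A-Tg 3.52 ± 1.07 and 9.32 ± 3.96 CPM (SD, n = 6). Across all 24 libraries, the lowest HFD library, at 4.68 CPM, lay above the highest chow library, at 4.43 CPM. It rose 5.63-fold in WT-Tg, a log2 change of 2.49 ± 0.29 (adjusted p = 2.91e-07), and 2.64-fold in D316A-Tg, 1.40 ± 0.28 (adjusted p = 0.000458). Gabpa rose by smaller steps, with log2 changes of 0.44 ± 0.08 (adjusted p = 0.000145) and 0.41 ± 0.08 (adjusted p = 0.000486). Without the lymphocyte-rich libraries the Gabpa value in D316A-Tg was 0.27 with an adjusted p of 0.0877.

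Ppargc1b fell in both genotypes, from 5.93 ± 0.843 to 2.70 ± 0.592 CPM in WT-Tg and from 13.9 ± 2.07 to 5.73 ± 2.86 CPM in D316A-Tg. The highest WT-Tg HFD library, at 3.13 CPM, lay below the lowest WT-Tg chow library, and in D316A-Tg library 7 on HFD, at 11.0 CPM, overlapped the chow range. The log2 changes were -1.13 ± 0.24 (adjusted p = 0.000378) and -1.27 ± 0.24 (adjusted p = 0.000181). Ppargc1a had log2 differences of 0.12 ± 0.30 in WT-Tg (adjusted p = 0.756) and 0.00 ± 0.30 in D316A-Tg (adjusted p = 0.993). Without the lymphocyte-rich libraries these became -0.52 (adjusted p = 0.107) and -1.16 (adjusted p = 0.00458). The log2 ratio of Ppargc1a to Ppargc1b per kb was -0.06 ± 0.52 in WT-Tg and -0.17 ± 0.33 in D316A-Tg on chow, and 1.25 ± 0.61 and 1.03 ± 0.41 on HFD (SD, n = 6). Both messages were thus about level on chow and Ppargc1a was the more abundant on HFD, with no overlap between the diets within either genotype.

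In WT-Tg, Pprc1, Nrf1, Tfam and Perm1 were also called lower on HFD, with log2 changes of -0.76 ± 0.23, -0.74 ± 0.19, -0.44 ± 0.12 and -2.98 ± 0.95 (adjusted p = 0.00871, 0.00190, 0.00344 and 0.0110). The 4 chow WT-Tg libraries rich in lymphocyte RNA were the highest for Pprc1 and Nrf1. Without lymphocyte-rich libraries Pprc1 was at -0.15 (adjusted p = 0.474) and Tfam at -0.21 (adjusted p = 0.0883). In the WT-Tg libraries that were not lymphocyte-rich, Nrf1 held 18.7 and 19.9 CPM on chow and 13.2 to 16.9 CPM on HFD, without overlap. With the muscle score as a covariate Perm1 was at -1.83 (adjusted p = 0.0657), and its WT-Tg HFD libraries held only 0 to 9 counts each. In D316A-Tg, Pprc1, Nrf1 and Tfam had log2 differences of 0.13, -0.13 and -0.22, with adjusted p of 0.722, 0.641 and 0.160. The test of the difference between the genotypes is the diet contrast above, which called Perm1 and none of these others. Tfam was called in D316A-Tg without chow library 9, at -0.32 (adjusted p = 0.0296), and Esrra without chow library 8, at -0.48 (adjusted p = 0.0449). Perm1 was called higher there, 2.42 ± 0.89 (adjusted p = 0.0354), but at 0.78 with an adjusted p of 0.450 without HFD library 7. That call also ended without D316A-Tg chow library 7, 9, 10 or 12, with adjusted p from 0.0546 to 0.0748, and with the muscle score as a covariate the value was -0.36 (adjusted p = 0.872).

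**Figure D5:**
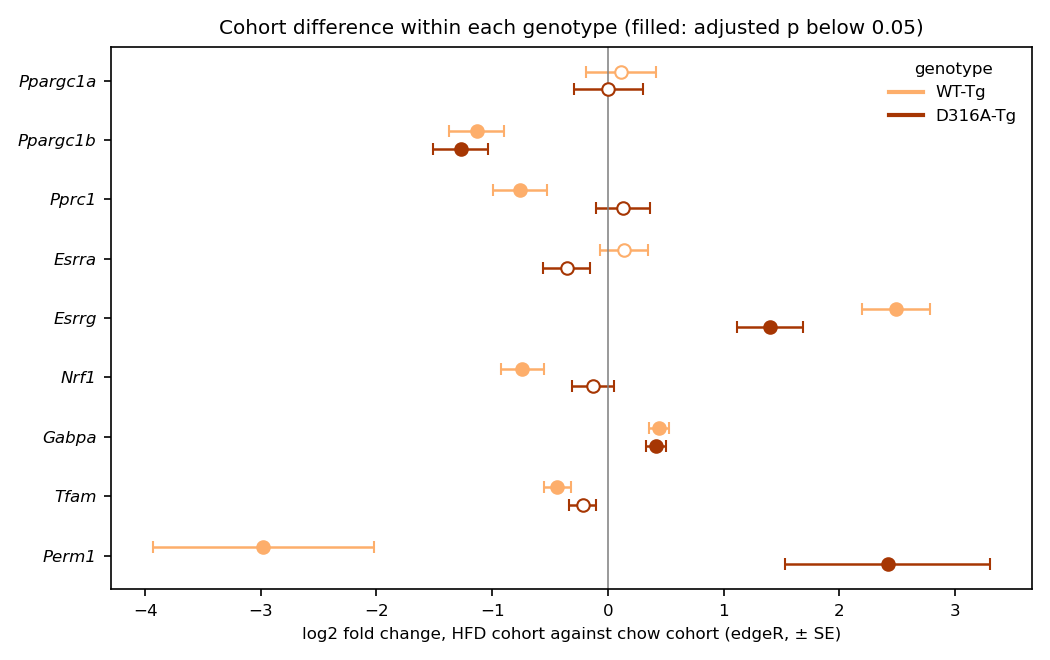
Log2 fold change of the HFD cohort against the chow cohort within each genotype, with SE as bars; filled points passed an adjusted p below 0.05. Esrrg and Gabpa lie to the right and Ppargc1b to the left in both genotypes, while Perm1 lies at -2.98 in WT-Tg and at 2.42 in D316A-Tg.

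Genes known as targets of PGC-1 and ERR differed between genotypes on chow. In D316A-Tg 17 of the 28 tested were called higher and none lower, with a median log2 change of 0.89 beside -0.07 for all genes, of which 5.30% were called higher. The electron carrier Cycs rose from 8.75 ± 2.79 to 21.2 ± 5.90 CPM, a log2 change of 1.28 ± 0.25 (adjusted p = 0.0193). The carnitine carrier Slc25a20 rose by 1.12 ± 0.22 (adjusted p = 0.0193), Hadha of mitochondrial fatty acid oxidation by 1.09 ± 0.22 (adjusted p = 0.0213) and the adenine nucleotide carrier Slc25a5 by 0.77 ± 0.14 (adjusted p = 0.0169). Without the lymphocyte-rich libraries 19 of 28 were called higher and 1 lower, at a median of 0.76. With no expression filter 9 were called, and with the muscle score as a covariate none, at medians of 0.89 and 0.90. Marker lists of adipocytes and other cells also differed on chow. The median log2 change was 1.44 over 9 brown and beige adipocyte markers, with 3 called higher, and 0.71 over 10 mature adipocyte markers, with none called. It was -0.89 over 8 macrophage markers, with none called, and -0.74 over 7 endothelial markers, with 1 called lower. Their part in the count was not tested. The median mature adipocyte score was 10.8 in WT-Tg libraries and 11.8 in D316A-Tg libraries, with overlapping ranges.

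That count depended on single libraries although its median did not. It was 5, 7, 1 and 7 without WT-Tg chow library 1, 2, 3 and 4, and 0, 0, 2 and 0 without D316A-Tg chow library 7, 9, 10 and 12, at medians from 0.79 to 0.93. The calls over the whole table fell in the same fits, from 1303 to 420, 383, 215 and 349, and to 140, 205, 244 and 141. The drop is therefore not particular to this list. On HFD none of the 28 was called by edgeR, at a median of 0.13 beside 0.01. That median was -0.32 with the muscle score and -0.02 with the B lymphocyte score as a covariate, -0.17 without the lymphocyte-rich libraries and -0.06 without D316A-Tg library 7. DESeq2 called 1 higher and 1 lower, and without D316A-Tg library 12 edgeR called 1 higher and 2 lower. The adenine nucleotide carrier Slc25a5 there had a log2 difference of -0.33 ± 0.11 (adjusted p = 0.0678) and Pdk4, the kinase that shuts pyruvate out of oxidation, 1.21 ± 0.41 (adjusted p = 0.0804). In the contrast of the genotype effect between diets, 7 of the 28 were called lower and none higher, at a median of -0.72 beside 0.07 for all genes. Of all genes 6.86% were called lower there. The count of 7 was 18 without the lymphocyte-rich libraries, 2 with the B lymphocyte score and 0 with the muscle score as a covariate. The whole table held 1502, 1317 and 1 calls in those fits, beside 2080. The list count was 12, 11, 14 and 16 without WT-Tg chow library 5, WT-Tg chow library 6, D316A-Tg chow library 8 and D316A-Tg HFD library 7. Calls over the whole table numbered 3329, 3142, 4304 and 1769 in that order.

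Genes of the mitochondrion's own machinery were also called higher on chow. Of 20 genes of mitochondrial DNA transcription and replication, 5 were called higher and none lower, among them Lrpprc, which stabilises mitochondrial messages, at a log2 change of 0.60 ± 0.09 (adjusted p = 0.00847), and the transcription factor Tfb2m at 0.66 ± 0.14 (adjusted p = 0.0225). Mterf4, needed for the mitochondrial ribosome, rose by 0.58 ± 0.12 (adjusted p = 0.0219). Of 21 genes of mitochondrial dynamics, import and chaperones, 8 were called higher and none lower, with the chaperonin Hspe1 at 0.71 ± 0.11 (adjusted p = 0.00852), the fusion GTPase Opa1 at 0.69 ± 0.14 (adjusted p = 0.0213) and the import channel gene Timm23 at 0.82 ± 0.19 (adjusted p = 0.0278). Both counts lay between 1 and 3 without WT-Tg library 1, 2, 3 or 4 or D316A-Tg library 7, 9, 10 or 12. In those fits 140 to 420 genes were called over the whole table, beside 1303 in the reported fit. The transcription and replication count was also 3 without WT-Tg library 5. The dynamics, import and chaperone count was 15 without D316A-Tg library 8, where the whole table held 3360 calls. With the muscle score as a covariate the counts were 1 and 0, with no expression filter 3 and 4, and without the lymphocyte-rich libraries 6 and 13. The medians of the lists were 0.23 and 0.46 beside -0.07 for all genes, of which 5.30% were called higher. On HFD the polymerase subunits Polg, 0.26 ± 0.05 (adjusted p = 0.0222), and Polg2, 0.76 ± 0.22 (adjusted p = 0.0494), were called higher, and the fission GTPase Dnm1l was called lower, -0.28 ± 0.06 (adjusted p = 0.0203). Of all genes 4.51% were called higher and 3.96% lower there. With only 2 of 20 and 1 of 21 called, these are no result about the lists. The count of 2 for the transcription and replication list was 0 or 1 without any single HFD library other than WT-Tg 3 and D316A-Tg 10 and 12, and 4 without D316A-Tg 12; for the dynamics list it was 3 without D316A-Tg 12. On HFD no gene of the 6 pathway lists was called with the muscle or the B lymphocyte score as a covariate, or without the lymphocyte-rich libraries. Those fits called only 0, 24 and 0 genes over the whole table, so the empty lists are no result about these genes.

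Of 21 tested partner factors of PGC-1 proteins, 1 was called higher and 1 lower on chow, a share near the 8.54% of all genes and so no result about the list. The fatty acid receptor Ppara rose from 9.95 ± 5.29 to 27.5 ± 9.61 CPM, a log2 change of 1.47 ± 0.38 (adjusted p = 0.0399), and the host cell factor Hcfc1 fell by 0.55 on the log2 scale (adjusted p = 0.0291). On HFD 4 of 22 partner factors were called higher and none lower, where 4.51% of all genes were called higher: Foxo1 at 0.90 ± 0.20 (adjusted p = 0.0243), the acetyltransferase Ep300 at 0.48 ± 0.11 (adjusted p = 0.0259), the coactivator Ncoa1 at 0.23 ± 0.06 (adjusted p = 0.0331) and the thyroid hormone receptor Thra at 0.44 ± 0.12 (adjusted p = 0.0459). Of 12 repressors and modifying enzymes, 2 were called lower and none higher on chow, where 3.25% of all genes were called lower, among them the acetyltransferase Kat2a, which dampens PGC-1 alpha and fell by 0.43 on the log2 scale (adjusted p = 0.0440). With the muscle score as a covariate or with no expression filter no partner factor and no repressor was called on chow. The corepressor Ncor1 was the 1 of the 12 called on HFD and was higher, at 0.55 ± 0.09 (adjusted p = 0.0137). That share is near the 8.47% of all genes called on HFD and so no result about the list. On chow the partner count was 0 or 1 without WT-Tg 1 to 4 or D316A-Tg 7, 9, 10, 11 or 12, each left out singly, and 6 without D316A-Tg 8, and the repressor count was 0 or 1 without WT-Tg 1 to 5 or D316A-Tg 7, 9, 10 or 12. On HFD the partner count was 0 to 2 without WT-Tg 1, 2, 4, 5 or 6 or D316A-Tg 7, 8 or 9, and 9 without D316A-Tg 12, and the repressor count was 2 without WT-Tg 2 or 3 and 3 without D316A-Tg 12. Over fits that left out 1 library, the whole table held 140 to 3360 calls on chow and 326 to 3919 on HFD.

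Upstream inducers of Ppargc1a were not called higher on chow in the reported fit, although 1 or 2 were in some of the other fits given below. Of the 18, where 3.25% of all genes were called lower, the cyclic AMP-responsive coactivators Crtc1, Crtc2 and Crtc3 were the 3 called, and they had log2 changes of -0.76, -0.57 and -0.57 (adjusted p = 0.00909, 0.0368 and 0.0379). With the muscle score as a covariate, or with no expression filter, 1 inducer was called lower on chow. On HFD 3 of 17 tested inducers were called higher and none lower, where 4.51% of all genes were called higher, among them the beta-adrenergic receptor Adrb3, at 1.53 ± 0.35 (adjusted p = 0.0263), and the AMPK catalytic subunit gene Prkaa1, at 0.28 ± 0.07 (adjusted p = 0.0389). Adrb3 averaged 71.0 ± 34.0 CPM over the WT-Tg libraries and 207 ± 91.4 CPM over the D316A-Tg libraries. On chow 1 inducer was called without WT-Tg 1 to 4 or D316A-Tg 7, 9, 10 or 12, and 5 without WT-Tg 6, 2 higher and 3 lower. With the B lymphocyte score as a covariate 2 were called higher and 3 lower. With DESeq2, and without D316A-Tg 8, 1 was called higher and 3 lower. On HFD 0 or 1 was called without WT-Tg 1, 2, 4, 5 or 6 or D316A-Tg 8, 9 or 11. Without D316A-Tg 12 it was 7, 5 higher and 2 lower. Such fits called 140 to 3360 genes over the whole table on chow and 326 to 3919 on HFD.

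Members did not vary together as a single block across libraries, although several moved with Ppargc1a on HFD. As a description over the 12 libraries of a diet, which share genotype, muscle and lymphocyte RNA, log2 CPM of Ppargc1a and Ppargc1b had a Pearson r of 0.81 on chow and 0.77 on HFD. Ppargc1a and Tfam had an r of -0.23 on chow and 0.89 on HFD, and Ppargc1a and Pprc1 had values of -0.81 and 0.41. On HFD Ppargc1a also had an r of 0.89 with Gabpa, 0.75 with Esrra, 0.73 with Perm1 and 0.61 with Nrf1. With Esrrb it was 0.39 and with Esrrg -0.07. Pprc1 and Nrf1 had an r of 0.96 on chow and 0.61 on HFD. Among the 10721 genes with at least 5 CPM on each diet, the genes most like Ppargc1a, by the lower of both r, were Crls1, which makes cardiolipin, at 0.90 and 0.92, the succinate dehydrogenase subunit Sdha at 0.88 and 0.89, and Orm3, Fam210a and Tcaim. Those most like Ppargc1b were Cept1, a phospholipid synthesis enzyme, at 0.91 and 0.86, and Acsm3, Rexo5, Dpp8 and Ahcyl1. For Esrra they were Rdh13, at 0.95 and 0.83, Mlx, BC003965, Exoc3 and the mitochondrial deacylase Sirt5. For Perm1 they included the muscle genes Eno3, at 0.80 and 0.96, Ttn, Cacna1s and Mybpc2.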

How the data were processed

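Poly(A) RNA of whole inguinal fat was sequenced in 24 libraries with a stranded TruSeq kit, per the labels' protocols. The authors deposited raw read counts per gene in 2 tables, 1 per diet. Tools listed in the submitters' processing notes are STAR 2.4.1, DESeq2, FastQC and bcl2fastq, with the mm10 build. Per the labels' protocols, base calling used bcl2fastq 2.20.0.422 on the chow runs and bclfastq 2.16.0.10 on the HFD runs. How reads were assigned to genes, and whether by strand, is not stated in the sources used here, so exon overlaps are printed. No pair of replicate libraries differed by less than sampling noise: the smallest chi-square over its degrees of freedom was 14.4.

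The counts were tested with the quasi-likelihood test of edgeR 4.0.16 (R 4.3.3, limma 3.58.1, TMM, filterByExpr, robust), within each diet, or over all 24 libraries on the 38013 shared genes for contrasts across diets. Calls needed an adjusted p (Benjamini-Hochberg, over every gene in the fit) below 0.05. The fit was tested on simulated data. CPM was scaled over all 24 libraries with TMM, so a ratio of CPM can differ slightly from a fitted fold, and log2 CPM used a prior count of 2. Coordinates and exon lengths are from GENCODE M21 on GRCm38, 1-based; promoter sequences are from RefSeq. Alternatives were RLE scaling, no filter beyond 1 count, DESeq2 1.42.0, the muscle or B lymphocyte score as a covariate, leaving out lymphocyte-rich libraries or each library in turn, a single fit, single-genotype fits and a replicate block; applying them to the pathway lists was added after seeing the data.

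The members, the 6 pathway lists and the marker lists (muscle, B lymphocyte, brown and beige adipocyte, mature adipocyte, macrophage, endothelial) were chosen with earlier results of these data known. All 10 members are described. Of each pathway list, up to 4 genes with the lowest adjusted p per genotype comparison could be named. For likeness the 5 genes with the highest r were named, leaving out predicted genes. No protein sequence was used here. Some genes that these rules name are not reported here. Intervals and spreads cover these libraries only.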

Additional observations from a re-analysis of the deposited data

Results flagged for a closer look

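Over the 40 groups of 6 libraries tested for a single far value on log2 CPM with Dixon's critical value, 3 held such a value, and chance flags about 1 group in 20. Gabpa and Esrrg were lowest in the same library, D316A-Tg chow library 7, at 42.55 CPM for Gabpa and 1.573 CPM for Esrrg, apart from the other 5 libraries. That library also had the highest Ppargc1a of its group, 26.2 CPM. Esrrb stood at 0 CPM in WT-Tg chow library 2, where the group's other libraries held 3 to 7 counts. The D316A effect on Perm1 differed between the diet cohorts by a log2 value of 5.39, tested as an interaction (adjusted p = 0.0114). The muscle score differed between the groups in the same way. With that score as a covariate the Perm1 value was 1.47, and without D316A-Tg HFD library 7 it was 3.76. The WT-Tg HFD libraries held only 0 to 9 Perm1 counts each.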

How the results depend on the processing

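Members called on chow numbered 2, and 5 with the B lymphocyte score and 1 with the muscle score as a covariate. On HFD the count was 1, and 0 with the B lymphocyte score, with the muscle score or without lymphocyte-rich libraries, and 2 with DESeq2 or in a single fit of all 24 libraries. For the difference of the genotype effect between diets it was 1, and 0 with the muscle score, 2 with DESeq2 and 2 without lymphocyte-rich libraries. Leaving out each library gave 1 to 4 on chow, 0 to 4 on HFD, 1 to 3 for the difference between diets, and, for HFD against chow, 7 to 7 within WT-Tg and 3 to 5 within D316A-Tg. Over the whole table, 1303 genes on chow became 67 with the muscle score, 3719 with the B lymphocyte score, 2305 without lymphocyte-rich libraries, 2931 with DESeq2, 3615 in a single fit and 524 with no filter. On HFD, 1241 became 0, 24, 0, 2937, 882 and 795 in the same order, and 2080 for the difference between diets became 1 with the muscle score and 1317 with the B lymphocyte score. With each library left out in turn, 140 to 3360 genes were called on chow and 326 to 3919 on HFD.

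Whether title numbers shared across diets link libraries is not given in the labels. The r of same-numbered libraries exceeded 0.1 in 7 of 12 pairs, 5 of them in D316A-Tg, not in every pair as required here to treat them as paired, and 4 of 12 matched their own number best. With the replicate block, 2 members, Pprc1 (0.95, adjusted p = 0.0333) and Nrf1 (0.60, adjusted p = 0.0233), were called for the difference between diets, and Perm1 was at 4.21 (adjusted p = 0.0680).

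Log2 values that changed sign were as follows, and the cause was not tested. With the B lymphocyte score: on HFD Esrra -0.17, Nrf1 -0.14 and Tfam -0.00501; Pprc1 -0.0868 for HFD against chow in D316A-Tg; Tfam -0.0911 between diets. With the muscle score: on HFD Esrra -0.32, Ppargc1a -0.23 and Ppargc1b -0.0333; Tfam -0.0404 on chow; in D316A-Tg across diets Perm1 -0.36 and Ppargc1a -0.58. Without lymphocyte-rich libraries: on HFD Esrra -0.39, Nrf1 -0.16, Ppargc1a -0.0376 and Tfam -0.0157; Tfam -0.25 between diets; across diets Ppargc1a -1.16 in D316A-Tg and -0.52 in WT-Tg. Ppargc1a in D316A-Tg across diets, 0.00 as reported, was also -0.00861 with DESeq2, -0.0114 with RLE scaling, -0.0185 in D316A-Tg alone and -0.17 with the replicate block. Leaving out each library gave ranges of -0.0682 to 0.10 for Esrra on HFD, -0.0438 to 0.0567 for Tfam on chow, -0.15 to 0.0234 for Gabpa and -0.39 to 0.0694 for Ppargc1a between diets, and -0.27 to 0.19 for Ppargc1a and -0.0241 to 0.32 for Pprc1 in D316A-Tg across diets. Among values of single genes, lists and the whole table under all alternatives, 1755 kept their direction and side of the threshold or stayed within 1.5 times, 245 moved further, 42 changed sign, 37 lost and 30 gained a call. Depth limits Esrrb, and Perm1 on HFD.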
